A study of Mus musculus with 8 samples.

Results

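Accessible chromatin was examined at 10 genes of the Nrf2 antioxidant response in fasted mouse liver: Nfe2l2, Keap1, Nqo1, Gclc, Gclm, Hmox1, Txnrd1, Srxn1, Slc7a11 and Cat. A region of the authors' consensus set was taken as belonging to a gene when that gene was the nearest protein-coding gene, with distance measured to the gene span (0 where they overlap) and limited to 100 kb. This gave 56 of 49587 consensus regions, at 9 of the 10 genes, and none at Slc7a11. The farthest region kept lay 58660 bp from Nfe2l2, and the nearest one left out lay 314729 bp from Slc7a11.

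The study used ATAC-seq, a transposase-based assay of open chromatin, on flash-frozen livers of male C57BL/6 mice aged 9 weeks. All animals, controls included, had been fasted for 24 h and were kept on a cycle of 14 h light and 10 h dark. The 4 genotypes were wild type (WT), a liver knockout of Cpt2 (Cpt2 L-/-), a whole-body knockout of Ppara (Ppara -/-), and the double knockout (Cpt2 L-/- ; Ppara -/-), with 2 libraries each. Cpt2 encodes a mitochondrial enzyme needed to burn long-chain fatty acids, and Ppara encodes the fatty-acid-sensing nuclear receptor that drives the fasting programme of hepatocytes. The Cre driver of the liver knockout, and whether the libraries of a genotype came from separate animals, are not given in the sources used here. WT and Cpt2 knockout are called Ppara-intact, and Ppara knockout and double knockout Ppara-null.

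Nrf2, the product of Nfe2l2, is a transcription factor that Keap1 marks for degradation under basal conditions. Electrophiles and oxidants modify Keap1, and Nrf2 then accumulates and binds antioxidant response elements with small Maf partners. Its known targets include the glutathione synthesis enzymes Gclc and Gclm, the thioredoxin system, the quinone reductase Nqo1 and the haem-degrading enzyme Hmox1, and in liver the pathway is known for the response to toxic electrophiles and reactive oxygen.

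Ppara-intact libraries had lists of 28733 to 39296 deposited peaks and Ppara-null libraries lists of 18132 to 22715, so calls were fewer in the latter over the genome as a whole. Read totals are not given, so the depth is unknown, and a call only says that a peak passed the threshold of its list. Those lists start at a −log10 p of 7.11 to 7.82. The number inside the peak names was 441, 443, 446 or 4717 where Ppara was intact, and 6831 to 6834 where it was deleted. Should this number mark a processing batch, its share in any difference and that of Ppara cannot be told apart. As a check of the tissue, 6 hepatocyte markers (Alb, Ttr, Apoa1, Serpina1a, Hnf4a and Cps1) all had regions, and 5 of them had a region at a gene end called in all 8 libraries. Markers of other liver cells had regions too: all 5 endothelial markers (37 regions), 3 of 4 stellate markers (8 regions, not Des), 2 of 4 cholangiocyte markers (11 regions, not Krt19 or Krt7), 1 of 5 Kupffer cell markers (Clec4f, 1 region) and 1 of 3 lymphocyte markers (Ptprc, 1 region). None of these genes had a gene-end region called in all 8 libraries.

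The promoters on which the results turn are shown first, as the 250 bases before the RefSeq start (GRCm38.p6, the assembly of mm10), each written 5′ to 3′ on the strand of the gene. Capitals mark the antioxidant response element core TGACNNNGC and the AP-1 motif TGANTCA, each searched on both strands. The AP-1 motif reads the same on both strands, and no match to it overlapped a match to the element core. Nfe2l2, Gclm, Txnrd1, Srxn1 and Cat are shown because their promoters were called in all 8 libraries, and Nqo1 because its promoter call differed between genotypes.
Nfe2l2, chr2:75704664-75704913, minus strand: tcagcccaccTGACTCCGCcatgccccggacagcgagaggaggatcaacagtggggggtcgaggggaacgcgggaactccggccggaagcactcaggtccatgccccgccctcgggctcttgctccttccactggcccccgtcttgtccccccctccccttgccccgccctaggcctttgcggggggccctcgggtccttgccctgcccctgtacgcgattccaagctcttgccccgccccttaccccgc
Gclm, chr3:122245307-122245556, plus strand: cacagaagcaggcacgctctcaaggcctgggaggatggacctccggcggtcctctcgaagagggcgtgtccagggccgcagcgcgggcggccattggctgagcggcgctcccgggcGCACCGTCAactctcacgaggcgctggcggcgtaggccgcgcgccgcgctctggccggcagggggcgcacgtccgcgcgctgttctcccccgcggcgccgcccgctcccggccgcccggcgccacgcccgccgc
Txnrd1, chr10:82858956-82859205, plus strand: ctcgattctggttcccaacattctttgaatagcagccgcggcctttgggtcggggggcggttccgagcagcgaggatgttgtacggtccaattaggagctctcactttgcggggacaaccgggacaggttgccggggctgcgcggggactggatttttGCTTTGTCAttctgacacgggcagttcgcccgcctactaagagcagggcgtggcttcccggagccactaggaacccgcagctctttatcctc
Srxn1, chr2:152105274-152105523, plus strand: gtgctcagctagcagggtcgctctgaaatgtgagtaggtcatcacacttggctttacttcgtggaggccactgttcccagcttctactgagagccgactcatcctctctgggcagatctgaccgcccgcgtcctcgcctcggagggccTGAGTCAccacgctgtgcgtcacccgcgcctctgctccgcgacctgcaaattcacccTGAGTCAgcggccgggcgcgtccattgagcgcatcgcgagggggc
Cat, chr2:103485154-103485403, minus strand: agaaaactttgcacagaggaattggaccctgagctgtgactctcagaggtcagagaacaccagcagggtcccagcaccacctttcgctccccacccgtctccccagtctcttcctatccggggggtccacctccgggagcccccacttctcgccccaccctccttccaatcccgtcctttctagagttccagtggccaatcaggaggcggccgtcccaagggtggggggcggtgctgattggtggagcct
Nqo1, chr8:107403206-107403455, minus strand: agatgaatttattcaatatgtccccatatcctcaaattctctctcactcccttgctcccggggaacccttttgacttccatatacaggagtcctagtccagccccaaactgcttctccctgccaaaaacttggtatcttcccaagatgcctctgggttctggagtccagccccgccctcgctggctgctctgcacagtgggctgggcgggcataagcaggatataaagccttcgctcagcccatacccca
Nfe2l2, Gclm and Txnrd1 each held 1 match to the antioxidant response element core, at 240, 134 and 92 bases before the start. Srxn1 held 2 matches to the AP-1 motif, at 102 and 45 bases before the start, and a match to the element core that began 28 bases after it, outside the printed bases. The Cat and Nqo1 windows held no match to either motif. Over the full 300-base windows, 4 of the 10 windows of the genes held the element core, against 12.4% of all 32851 promoter windows in the table. The DR1 direct repeat, the motif bound by Ppara with its partner Rxr, was in none of the 10 windows and in 0.4% of all. Gclc and Hmox1 are named without a promoter sequence. A match of letters is a description and shows no binding.

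The regulators came first. Nfe2l2 (chromosome 2, 75675513 to 75704663) had 7 regions, and the region over its promoter, at 75703421 to 75705445, was called in every library and ranked high in each list. The deposited fold there, MACS2's enrichment over local background for each peak, was 9.38 and 8.51 in WT, 10.8 and 7.78 in Cpt2 knockout, 6.52 and 6.79 in Ppara knockout, and 8.04 and 7.42 in double knockout. The Ppara-null values were at the low end, and the 2 sets of 4 overlapped. In Ppara-intact libraries this peak was stronger by −log10 p than 92.2% to 97.5% of its list, and in Ppara-null libraries than 85.1% to 92.8%.

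Upstream of Nfe2l2 lay 2 regions with larger folds than the promoter in Ppara-intact libraries. At 75716029 to 75716437, 11366 bp from the gene, the fold was 10.6 and 11.1 in WT and 14.1 and 11.4 in Cpt2 knockout, against 5.41 and 6.08 in Ppara knockout and 6.47 and 5.51 in double knockout. All 8 libraries called it, and the Ppara-null folds lay below every Ppara-intact fold. At 75722913 to 75723309, 18250 bp away, the fold was 11.4 and 13.5 in WT and 15.9 and 17.0 in Cpt2 knockout, 7.65 in Ppara knockout 1, and 6.28 and 6.87 in double knockout, with no call in Ppara knockout 2. The other 4 regions of Nfe2l2 were called in 1 or 2 libraries each, all of them Ppara-intact.

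Keap1 (chromosome 9, 21229730 to 21239332), the adaptor that sends Nrf2 for degradation, had 4 regions, none of them called in double knockout 2. Its promoter region at 21238616 to 21239482 had folds of 5.73 and 8.47 in WT and of 5.96 and 7.38 in Cpt2 knockout. In Ppara knockout the folds were 3.90 and 4.60, and double knockout 1 had 3.68. The 3 Ppara-null values were below all Ppara-intact values, a pattern not counted over all consensus regions called in 7 libraries. The called peaks also differed in extent there: in WT 1 the peak ran from 21238616 to 21239472, whereas in Ppara knockout 2 it covered 21239137 to 21239439, at the start of the gene, and in double knockout 1 it covered 21238651 to 21238989, inside the gene. Ppara knockout 1 had 2 peaks in this region, the stronger at 21239161 to 21239405. Near Keap1, 4143 bp away at 21225163 to 21225587, each of the 4 Ppara-intact libraries and no other had a peak, with folds of 3.97 and 4.27 in WT and 5.35 and 3.85 in Cpt2 knockout.

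**Figure D1:**
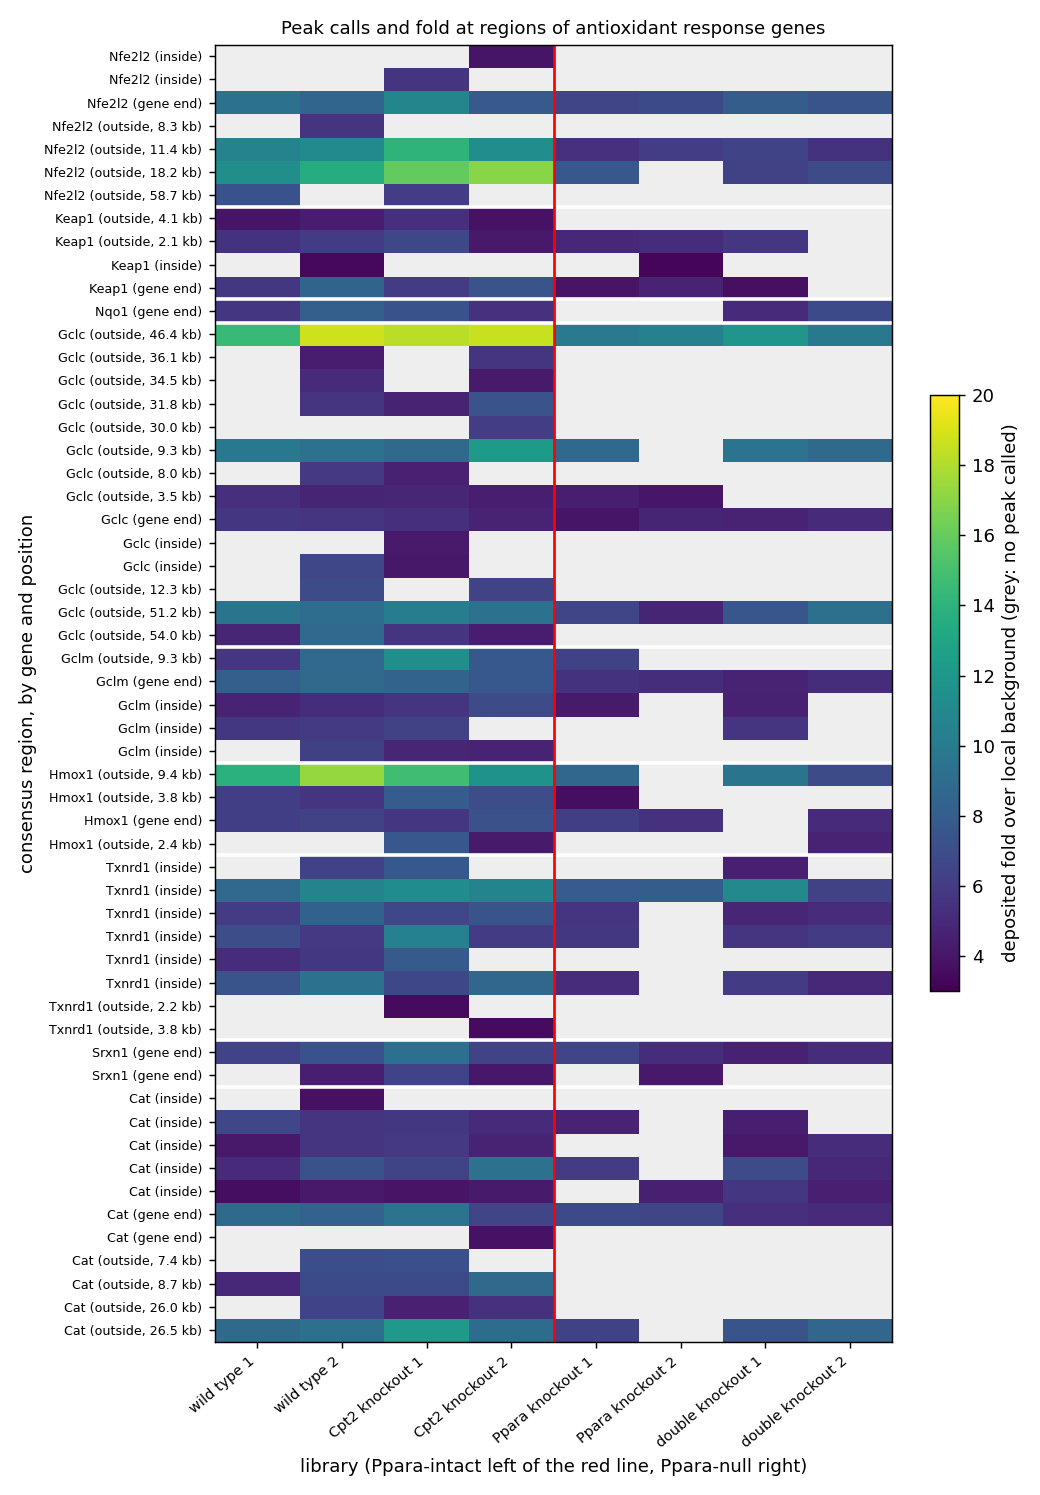
Heat map of the 56 regions (rows, by gene and position, with the distance in kb for regions outside the gene) in the 8 libraries (columns). Colour gives the deposited fold over local background and grey marks no call; the 4 Ppara-null columns hold 16 to 26 called regions each against 34 to 47 in the Ppara-intact columns.

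Glutathione synthesis begins with glutamate-cysteine ligase, whose catalytic subunit is encoded by Gclc and whose modifier subunit is encoded by Gclm. Gclc (chromosome 9, 77754535 to 77794489) had 14 regions, the most of the 10 genes, and 11 of them lay outside the gene. The strongest, at 77707637 to 77708162 and 46373 bp from Gclc, had folds of 14.4 and 18.8 in WT, 18.2 and 18.6 in Cpt2 knockout, 10.1 and 10.5 in Ppara knockout, and 11.8 and 9.89 in double knockout. Ppara-null values were all lower than Ppara-intact ones, yet the peak still stood above 81.3% to 89.5% of each Ppara-null list. At the gene end, 77754434 to 77755098, the folds were small throughout, at 4.62 to 5.70 with Ppara intact and 3.99 to 5.0 without it, and the 2 ranges overlapped.

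Other Gclc regions were less evenly called. A region 51159 bp from the gene, at 77845648 to 77846418, had folds of 9.09 to 10.2 in Ppara-intact libraries, 6.58 and 4.76 in Ppara knockout, and 7.56 and 9.31 in double knockout. All 8 libraries called it, and double knockout 2 lay within the Ppara-intact range. Its neighbour at 77848496 to 77848936 had no call in any Ppara-null library and a call in each of the 4 others, with folds of 4.80 and 8.82 in WT and 5.64 and 4.29 in Cpt2 knockout. At 77750456 to 77751015, 3520 bp from Gclc, folds were 4.0 to 5.38 in the 6 libraries that called it, and double knockout had no call. The region 31762 bp away, at 77722466 to 77722773, had calls in WT 2 (5.62) and in both Cpt2 knockout libraries (4.72 and 7.32) and nowhere else.

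Gclm (chromosome 3, 122245487 to 122267215) had 5 regions. The promoter region at 122245235 to 122246128 had folds of 8.13 and 8.85 in WT and 8.41 and 7.67 in Cpt2 knockout, against 5.51 and 5.22 in Ppara knockout and 4.69 and 5.25 in double knockout. The Ppara-null values did not overlap with the Ppara-intact ones. The region 9300 bp away, at 122235769 to 122236187, had calls in the 4 Ppara-intact libraries at folds of 5.69 to 11.4 and in Ppara knockout 1 at 6.28. Inside the gene, the region at 122247064 to 122247521 had calls in every Ppara-intact library and in Ppara knockout 1 and double knockout 1. Also inside the gene, the region at 122252512 to 122252821 had folds of 5.77 and 5.90 in WT, 6.29 in Cpt2 knockout 1 and 5.54 in double knockout 1, and that at 122252967 to 122253403 had 6.20 in WT 2 and 4.85 and 4.71 in Cpt2 knockout. Neither was called in Ppara knockout.

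Slc7a11 (chromosome 3, 50364936 to 50499087), the cystine importer that feeds glutathione synthesis, had no consensus region inside its 134152 bp span or within 100 kb of it. No library therefore gave a call there, whatever the genotype.

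The thioredoxin arm was represented by Txnrd1, a thioredoxin reductase, and Srxn1, which repairs over-oxidised peroxiredoxins. Txnrd1 (chromosome 10, 82833951 to 82897724) has 3 promoter windows in RefSeq, and no region overlapped the first, at 82833701 to 82834000. The promoter printed above lay in a region at 82858835 to 82859394, with folds of 8.79 and 10.6 in WT, 11.3 and 10.6 in Cpt2 knockout, 7.93 and 8.02 in Ppara knockout, and 10.98 and 6.30 in double knockout. The double knockout libraries spanned nearly the whole range, so the groups overlapped. The third window overlapped a region at 82860324 to 82860724, called in all libraries but Ppara knockout 2. Inside Txnrd1, 2 further regions were likewise missing in Ppara knockout 2 alone, at 82876269 to 82876838 and at 82889580 to 82889938. The region at 82878739 to 82879075 was called in WT at 5.14 and 5.74 and in Cpt2 knockout 1 at 7.79, and in no Ppara-null library.

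Srxn1 (chromosome 2, 152105524 to 152111376) had a promoter region at 152105259 to 152106052 with folds of 6.41 and 7.31 in WT, 9.20 and 6.51 in Cpt2 knockout, 6.53 and 5.19 in Ppara knockout, and 4.55 and 5.23 in double knockout. Ppara knockout 1 reached the level of the lower Ppara-intact libraries. At the other end of the gene, the region at 152111904 to 152112264 was called in 4 libraries at folds of 4.10 to 6.41.

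**Figure D2:**
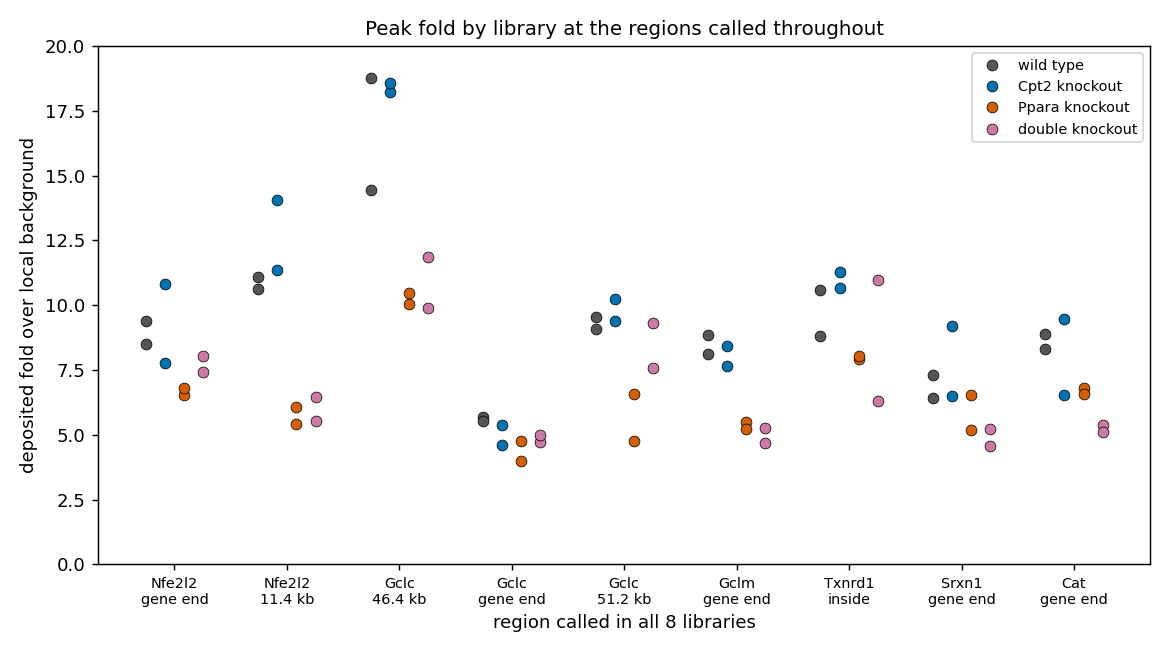
Deposited fold over local background (vertical axis) at the 9 regions called in all 8 libraries (horizontal axis), with 1 point per library and colours for genotype. At the Nfe2l2 region 11.4 kb away, the Gclc region 46.4 kb away and the Gclm gene end, the 4 Ppara-null points all lie below the 4 Ppara-intact points; at the other 6 regions the sets overlap.

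Across those 9 regions, 3 had Ppara-null folds that were all below the Ppara-intact folds, and none had them all above. Among all 11258 regions called in every library, 60.0% had the Ppara-null folds all below and 0.222% all above, so 3 of 9 is fewer than the general share. List medians of fold ranged from 6.56 to 7.46 with Ppara intact and from 5.65 to 6.08 without it. This count was made after the plotted values had been seen. Folds are the authors' values for single peaks and were not tested across lists.

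Nqo1 (chromosome 8, 107388225 to 107403205), a quinone reductase and a classical Nrf2 target, had a single region, over its promoter at 107403005 to 107403759. The fold was 5.68 and 8.13 in WT, 7.28 and 5.46 in Cpt2 knockout, and 5.12 and 6.81 in double knockout, and neither Ppara knockout library had a peak. The calling genotypes overlapped in fold. Among the 10 regions within 1 kb of a gene end, this was the 1 that separated Ppara knockout from the other 3 genotypes. The −log10 p was modest, at 20.8 and 35.8 in WT, 29.5 and 22.0 in Cpt2 knockout and 16.7 and 25.7 in double knockout. In lists cut to the strongest 18132 peaks of each library, the length of the shortest list and called equal-number lists here, double knockout alone kept a call. The weakest peak kept then had a −log10 p of 21.8 and 36.6 in WT, 37.9 and 31.8 in Cpt2 knockout, 12.8 and 9.27 in Ppara knockout, and 14.6 and 7.77 in double knockout. Cutting a list can only remove calls, and the lists of double knockout 2 and Ppara knockout 2 were hardly shortened, so it is the WT and Cpt2 knockout calls on which the cut bears. The double knockout peaks were also narrower, at 107403060 to 107403360 and 107403061 to 107403366, and did not reach 50% of the region, so with a call counted at 50% cover Nqo1 was called in the 4 Ppara-intact libraries and in no other.

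Hmox1 (chromosome 8, 75093618 to 75100593), which breaks down haem, had its strongest region outside the gene, 9439 bp away at 75083748 to 75084179. Folds there were 13.9 and 17.3 in WT, 14.8 and 11.7 in Cpt2 knockout, 8.64 in Ppara knockout 1, and 9.55 and 6.90 in double knockout, with no call in Ppara knockout 2. All called Ppara-null values were below the Ppara-intact ones, which was likewise not counted over all consensus regions called in 7 libraries. The region at the gene end, 75093469 to 75093869, had folds of 6.17 and 6.27 in WT, 5.69 and 7.23 in Cpt2 knockout, 6.17 and 5.42 in Ppara knockout, and 5.0 in double knockout 2, with no call in double knockout 1. Ppara-intact and Ppara knockout libraries overlapped there. Another region, 3767 bp away at 75089386 to 75089851, had calls in all 4 Ppara-intact libraries at folds of 5.65 to 7.93 and in Ppara knockout 1 at 3.61. The Ppara knockout 1 peak covered 75089386 to 75089585 and had its highest point at 75089397. In the Ppara-intact libraries the highest points lay at 75089643 to 75089682. A region 2359 bp from the gene, at 75102952 to 75103299, was called in both Cpt2 knockout libraries, at folds of 7.64 and 4.20, and in double knockout 2 at 4.70, and not in WT.

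Cat (chromosome 2, 103453904 to 103485153) encodes catalase, the peroxisomal enzyme that splits hydrogen peroxide, and had 11 regions. The promoter region at 103484641 to 103485432 had folds of 8.87 and 8.32 in WT, 9.45 and 6.54 in Cpt2 knockout, 6.82 and 6.57 in Ppara knockout, and 5.37 and 5.10 in double knockout. Double knockout was lowest, below both Ppara knockout libraries, whose values overlapped with Cpt2 knockout. Calls confined to the 4 libraries with intact Ppara were seen 8720 bp from Cat, at 103493873 to 103494261, with folds of 4.92 and 6.83 in WT and 6.85 and 8.89 in Cpt2 knockout. Inside Cat, the region at 103467290 to 103467683 was called at folds of 4.17 to 5.84 in the Ppara-intact libraries, at 4.18 and 5.19 in double knockout, and not in Ppara knockout. It shared that pattern with the Nqo1 promoter. The region 26016 bp away, at 103511169 to 103511493, was called in WT 2 at 6.43 and in Cpt2 knockout at 4.58 and 5.41, and in no Ppara-null library. A further intragenic region, at 103480352 to 103480694, had folds of 4.47 in Ppara knockout 2 and 5.72 and 4.52 in double knockout. These were all above the 3.61 to 4.24 of the 4 Ppara-intact libraries, and Ppara knockout 1 had no call. The −log10 p did not follow, at 18.4 in Ppara knockout 2 and 30.9 and 16.1 in double knockout. In Ppara-intact libraries it was 18.7 to 32.7. How many of all consensus regions had such folds was not counted.

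Each library called a larger share of the 56 regions than of all consensus regions, except Ppara knockout 2, which called a smaller one. WT called 34 and 47 of the 56 (60.7% and 83.9%), and Cpt2 knockout 46 and 43 (82.1% and 76.8%). Ppara knockout called 25 and 16 (44.6% and 28.6%), and double knockout 26 and 22 (46.4% and 39.3%). The shares of all consensus regions were 56.9% and 71.8% in WT and 77.7% and 71.3% in Cpt2 knockout. They were 39.8% and 35.6% in Ppara knockout and 44.5% and 35.5% in double knockout. Ppara-intact libraries averaged 75.9% ± 10.6 and Ppara-null libraries 39.7% ± 8.0 (SD, n = 4 each), a difference of -36.2 percentage points, against -30.6 points over all consensus regions. The Ppara-null and Ppara-intact libraries did not overlap. The same held over all consensus regions, at 35.5% to 44.5% and 56.9% to 77.7%. Leaving out Ppara knockout 2, the library with the fewest calls, gave -32.4 points, against -29.5 over all regions. In equal-number lists the difference was -2.2 points, against -0.7 over all consensus regions. The Ppara-intact share was then 39.3% ± 3.8 and the Ppara-null share 37.1% ± 6.1 (SD, n = 4 each), a difference within the spread between libraries.

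Endothelial, cholangiocyte and stellate marker regions had more calls in each Ppara-intact library than in any Ppara-null one. The same held for all consensus regions, at 56.9% to 77.7% against 35.5% to 44.5%. These marker counts are from all peaks and were not made in equal-number lists. The 5 endothelial markers had 12 to 26 of 37 regions called with Ppara intact against 5 to 7 without it, the 4 cholangiocyte markers 5 to 9 against 0 to 1 of 11, and the 4 stellate markers 2 to 5 against 0 to 1 of 8. The 5 Kupffer cell markers had 0 to 1 against 0 of 1, and the 3 lymphocyte markers 1 against 0 to 1 of 1. For the 6 hepatocyte markers it was 35 to 43 against 29 to 34 of 64. Their part in the result was not tested, and in bulk liver fewer cells of a type and less open chromatin per cell cannot be told apart.

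**Figure D3:**
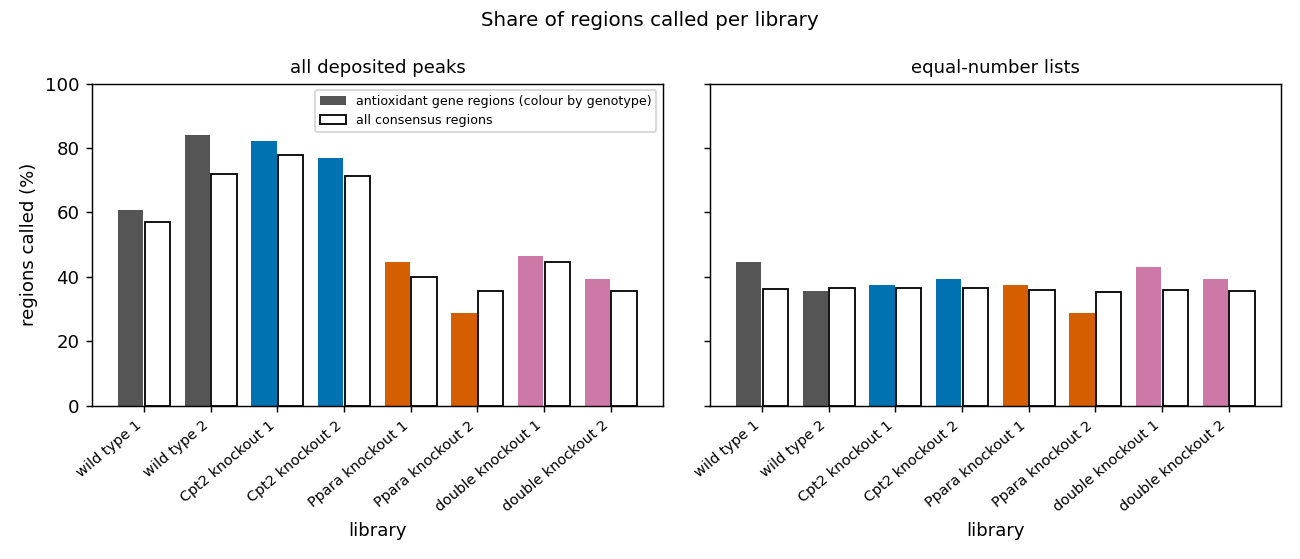
Percent of regions called (vertical axis) in each library (horizontal axis), for the 56 antioxidant gene regions (coloured by genotype) and all 49587 consensus regions (white), with all deposited peaks on the left and equal-number lists on the right. With all peaks the Ppara-null libraries call 28.6% to 46.4% of the 56 regions and the Ppara-intact ones 60.7% to 83.9%. For all consensus regions these ranges are 35.5% to 44.5% and 56.9% to 77.7%. In equal-number lists the range over all 8 libraries is 28.6% to 44.6% for the 56 regions.

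Calls also varied with the position of a region. Of the 10 regions within 1 kb of a gene end, 5 (50%) were called in all 8 libraries, as were 1 of the 19 inside a gene (5.3%) and 3 of the 27 outside genes (11.1%). The same shares over all consensus regions were 45.5%, 15.6% and 13.6%, so the order of gene ends before other positions is general. Ppara-null libraries made 72.5% of the possible calls at gene ends, 36.8% inside and 29.6% outside, and Ppara-intact libraries made 90.0%, 71.1% and 74.1%. For all consensus regions these shares were 60.7%, 32.0% and 30.2% in Ppara-null and 84.1%, 65.7% and 62.4% in Ppara-intact libraries. Of the 56 regions, 46 (82.1%) were called in more Ppara-intact than Ppara-null libraries, 10 in equal numbers and none in more Ppara-null ones. Among all consensus regions these shares were 66.9%, 25.8% and 7.3%. These counts are from all peaks, where the Ppara-intact lists are longer. In equal-number lists regions differed in both directions, and the numbers on each side were not counted. As examples, the Gclm region at 122247064 to 122247521 was called in 4 Ppara-intact libraries and 1 Ppara-null library. The Cat region at 103480352 to 103480694 was called in 0 Ppara-intact and 3 Ppara-null libraries.

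Genotypes were then compared by counting regions called in every library of one side and in none of the other. No test was made, since 2 libraries against 2 form only 3 splits, and the comparisons share libraries. For Ppara knockout against WT, which asks what loss of the receptor does in fasted liver, 7 of the 56 regions (12.5%) were called only in WT and none only in the knockout. The background over all consensus regions was 13.6% and 0.46%, so the share is near that of all regions. The 7 lay at Cat (2 regions), Txnrd1, Gclm, Nqo1, Keap1 and Gclc. In equal-number lists 1 region was called only in WT, at Gclm (122247064 to 122247521; background 3.44%), and none only in the knockout (background 2.38%). With all peaks the count was 19 without WT 1 or without Ppara knockout 1, and 8 without WT 2 or without Ppara knockout 2.

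For double knockout against WT, again 7 of 56 were called only in WT (12.5%, background 12.9%) and none only in double knockout (background 1.2%). These lay at Gclc (2 regions), Txnrd1, Cat, Gclm, Hmox1 and Keap1. The Nqo1 promoter was not among them. In equal-number lists the direction turned, with 2 regions only in double knockout (Nqo1 and the Cat region at 103480352 to 103480694; background 3.08%) and 1 only in WT (the Keap1 promoter; background 3.35%). With all peaks the count was 20 without WT 1 and 13 without double knockout 1, and 8 without WT 2 or without double knockout 2.

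Loss of Ppara where Cpt2 was already deleted, read from double knockout against Cpt2 knockout, gave 10 of 56 only in Cpt2 knockout (17.86%, background 20.4%) and none only in double knockout (background 0.597%). Gclc held 3 of these, Cat and Gclm 2 each, and Srxn1, Hmox1 and Keap1 1 each. In equal-number lists the direction turned here too, to 3 regions only in double knockout (Nqo1, Cat and the Gclc gene end; background 2.61%) and 1 only in Cpt2 knockout (Hmox1, 3767 bp away; background 2.99%). With all peaks the count was 17 without Cpt2 knockout 1 and 18 without Cpt2 knockout 2. It was 14 without double knockout 1 and 12 without double knockout 2.

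Loss of Cpt2 was read at each Ppara status. With Ppara intact, Cpt2 knockout against WT gave 1 of 56 only in Cpt2 knockout (1.79%, background 3.63%), the Hmox1 region 2359 bp from the gene, and none only in WT (background 0.512%). In equal-number lists neither Cpt2 knockout library called it, and no region was separated (background 0.918% only in Cpt2 knockout and 0.815% only in WT). Leaving out any of the 4 libraries moved the total to between 4 and 7, and without WT 1 the direction turned. Without Ppara, double knockout against Ppara knockout gave 2 of 56 only in double knockout (3.57%, background 2.33%), the Nqo1 promoter and the Cat region at 103467290 to 103467683. It gave 1 only in Ppara knockout (1.79%, background 1.45%), the Gclc region 3520 bp from the gene. Equal-number lists gave 2 and 1 again (background 2.03% only in double knockout and 1.84% only in Ppara knockout), but they leave the lists of double knockout 2 and Ppara knockout 2 nearly whole and cannot add a call. At 50% cover the Nqo1 and Gclc regions were no longer separated, and the 2 regions called only in double knockout were both at Cat (103467290 to 103467683 and 103511636 to 103512208). The total was 13 without Ppara knockout 1 and 6 without any of the other 3 libraries.

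By Ppara status, 3 of 56 regions had calls in each of the 4 Ppara-intact libraries and in none of the others (5.36%, background 6.82%): those 8720 bp from Cat, 4143 bp from Keap1 and 54007 bp from Gclc. None showed the reverse (background 0.0686%). In equal-number lists no region was separated (background 0.811% only in Ppara-intact and 0.512% only in Ppara-null libraries), and 1, 0 and 1 of the 4 Ppara-intact libraries still called these 3. With all peaks the count was 6 without WT 1 and 5 without Ppara knockout 1, and 3 or 4 without any other single library. By Cpt2 status none of the 56 was separated in either direction (background 0.0968% only in Cpt2-null and 0.00605% only in Cpt2-intact libraries), and without double knockout 1 it was 1. In equal-number lists none was separated either (background 0.0403% and 0.0544%).

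**Figure D4:**
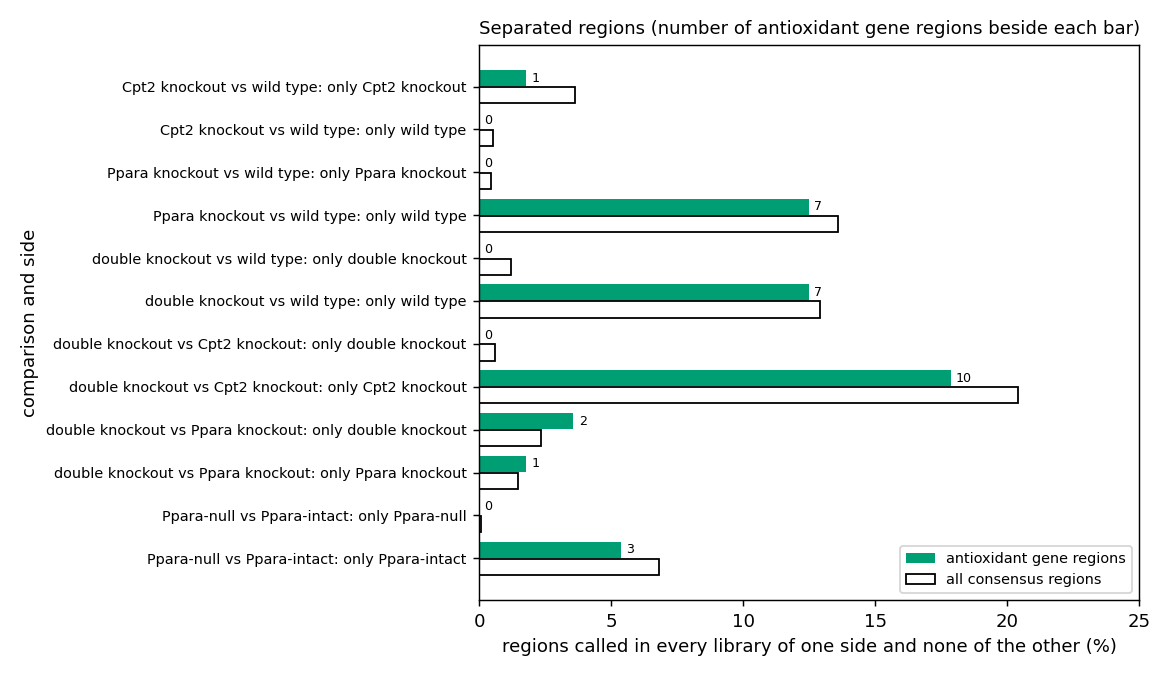
Percent of regions called in every library of one side and in none of the other (horizontal axis), for 5 pairs of genotypes and for Ppara status (vertical axis), with the number of antioxidant gene regions beside each green bar and all consensus regions in white. On this scale the green bars lie near the white ones, for example 12.5% and 13.6% for regions called only in WT against Ppara knockout. Pairs further apart in size or ratio include 17.86% and 20.4% for regions called only in Cpt2 knockout against double knockout. Regions called only in Cpt2 knockout against WT were 1.79% and 3.63%, and only in double knockout against Ppara knockout 3.57% and 2.33%.

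The wider pathway was read from a list of 52 further genes of glutathione, thioredoxin, NADPH and conjugation metabolism and of Nrf2 partners, of which 51 had a region, Gpx2 being the exception. Its 211 regions were called in 73.0% ± 10.6 of cases in Ppara-intact and 41.0% ± 7.6 in Ppara-null libraries (SD, n = 4 each). That difference of -32.0 points, against -30.6 over all consensus regions, was 1.1 in equal-number lists, against -0.7 over all consensus regions. By Ppara status 10 regions (4.74%, against 6.82% of all consensus regions) were separated, all of them called where Ppara was intact. The highest ranked lay 7700 bp from Gsta4, a glutathione transferase (chromosome 9, 78217049 to 78217531), 7987 bp from Prdx6, a peroxiredoxin (chromosome 1, 161259197 to 161259508), and 6974 bp from Gsta2 (chromosome 9, 78354166 to 78354508). Next came regions 17309 bp from Bach1, a repressor that competes with Nrf2 for its elements, inside Prdx6 and inside Mgst1, 32922 bp from Sod1 and 8558 bp from Abcc4. In equal-number lists 0 to 2 of the 4 Ppara-intact libraries called each of these 8.

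Of the 211 regions, 33 (15.64%, against 13.6% of all consensus regions) were called only in WT against Ppara knockout and 23 (10.9%, against 12.9%) only in WT against double knockout. Only in double knockout against WT were 4 (1.9%, against 1.2%), at Gstm2, Gstp1, Fth1 and Prdx1, which are named here after their values were seen. The regions 3622 bp from Gstm2, a glutathione transferase (chromosome 3, 107977727 to 107978080), 962 bp from Gstp1 and 5293 bp from Fth1, the ferritin heavy chain, were called in both double knockout libraries and in no other. That near Gstm2 kept both calls in equal-number lists, and those near Gstp1 and Fth1 kept 1 each. Mean strength by −log10 p exceeded 48.2% of the calling lists near Gstm2, 18.2% near Gstp1 and 19.8% near Fth1. The share of all consensus regions called in double knockout alone was not counted.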

How the data were processed

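ATAC-seq peak lists of 8 fasted mouse livers (4 genotypes, 2 libraries each) were analysed. Reads were processed with BWA and MACS2 2.1.0 on mm10, per the submitters' processing notes, with 1 list per library. Read filters, treatment of duplicates and any shift of Tn5 insertions are not given in the sources used here, and 610 to 647 peak numbers are missing per list. The deposited values per peak are the fold ratio over local background and the −log10 p and −log10 q values, as the authors' MACS2 wrote them. The deposited consensus table holds positions only, per the file headers. The planned count or signal models therefore did not apply, as the design allowed.

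Regions were assigned to 21896 RefSeq protein-coding genes (GRCm38.p6). No region of the 10 genes was equally near another gene. A call needed an overlap of 1 bp, and where several peaks overlapped a region, the one with the highest −log10 p gave its values. Described in full were regions at a gene start, those separated in a comparison and the highest ranked of each gene. Of the wider list, at most 8 regions separated by Ppara status were named, by mean percentile. Promoters came from the RefSeq table, which matched 8 of the 10 genes. Alternatives were equal-number lists, a −log10 q of at least 20, 50% cover, a 10 kb limit and leaving out libraries. A further hepatocyte marker is not reported here. AP-1 matches were capitalised after motif hits were seen. Functions were tested on simulated data. Genes and lists were chosen with earlier results of these data known. Python 3.11.15, pandas 2.3.3, NumPy 2.4.6 and matplotlib 3.10.9 were used.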

Additional observations from a re-analysis of the deposited data

Results flagged for a closer look

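The Gclc region 46373 bp from the gene had a fold of 14.4 in WT 1, far from the other Ppara-intact libraries, which reached 18.2 to 18.8. It was the 1 case among 22 sets of 4 libraries examined in this way, and chance alone gives about 1 in 20.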

How the results depend on the processing

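Counting a call at 50% cover, or keeping regions within 10 kb, left the size of all 9 results within the limits set, but at 50% cover the regions differed. For double knockout against Ppara knockout, Nqo1 and the Gclc region 3520 bp away dropped out and a Cat region entered; by Ppara status the Keap1 region dropped out, and Nqo1 and the Hmox1 region 3767 bp away entered. Equal-number lists moved or turned 7 of the 9. The changed regions of the 10 genes became 0 for Cpt2 knockout against WT, 1 for Ppara knockout against WT and 0 by Ppara status, and the share by Ppara status became -2.2 points. The direction turned for double knockout against WT (3 regions), for double knockout against Cpt2 knockout (4 regions) and for the wider list (1.1 points). These lists hold fewer peaks of the Ppara-intact libraries by construction. At a −log10 q of at least 20 the counts were 0 for Cpt2 knockout against WT, 11 for Ppara knockout against WT and 13 for double knockout against WT. They were 0 for double knockout against Ppara knockout and 8 by Ppara status. This cut kept 17500 to 26907 peaks in Ppara-intact lists and 6881 to 10946 in Ppara-null lists. The share of all consensus regions separated at this cut was not counted, and the cause was not tested.

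Leaving out a library makes separation easier by construction, since fewer calls must differ. The share of all consensus regions separated without a library was not counted, so these counts, here and above, have no background. The ranges were 4 to 7 for Cpt2 knockout against WT (4 without WT 1, where the direction turned), 8 to 19 for Ppara knockout against WT, 8 to 20 for double knockout against WT, 12 to 18 for double knockout against Cpt2 knockout, 6 to 13 for double knockout against Ppara knockout, 3 to 6 by Ppara status and 0 to 1 by Cpt2 status. The share by Ppara status ranged from -41.2 to -32.4 points, and that of the wider list from -37.0 to -29.1. Over all consensus regions, leaving out the same libraries gave -34.7 and -29.5 for the first pair. For the wider list it gave -34.7 and -27.8. Leaving libraries out of the shares was chosen after seeing the data.

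No paired analysis was possible because the counts of separated calls come from no test, and the replicate numbers in the labels are not said to mark a shared litter, batch or day. Depth is unknown, so the absence of a peak shows only that none passed the threshold of that list.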

Other observations

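Of the 56 regions, 8 (14.3%) were called in 7 libraries and missing in Ppara knockout 2 alone, against 3.2% of all consensus regions and 4.3% of the 211 regions of the wider list. They lay at Txnrd1 (3 regions), Cat (2), Nfe2l2, Hmox1 and Gclc. This pattern was not among the planned results and was counted for Ppara knockout 2 only, so the contrast with all regions is a description. Ppara knockout 2 called 28.6% of the 56 regions and 35.6% of all consensus regions, the 1 library in which the share at these genes was the lower of the 2 with all peaks. In equal-number lists this held for Ppara knockout 2 (28.6% against 35.3%) and for WT 2 (35.7% against 36.4%).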
